A study of Drosophila melanogaster with 4 samples.

Results

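The expression of 10 genes of sugar breakdown was measured in embryonic muscle precursor cells of Drosophila melanogaster: the glycolytic enzyme genes Hex-A, Pgi, Pfk, Tpi, Gapdh1, Gapdh2, Pgk and Eno, the lactate dehydrogenase gene Ldh and the glycerol-3-phosphate dehydrogenase gene Gpdh1. They were chosen by name, 10 of the 17518 genes listed in the deposited count table, and all 10 passed the filter on low counts together with 10728 other genes. The tested cells were GFP-positive cells sorted from stage 11 embryos homozygous for salm[340], an allele of spalt major (salm), which encodes a zinc finger transcription factor. The cells they were compared with were sorted in the same way from wild-type (WT) embryos. Each line had 2 libraries of polyA RNA, which the submitters call technical replicates, so every n of 2 counts libraries, and p-values measure the spread between libraries that may be technical. Per the labels' protocols, both lines laid eggs over 3 h at 25 C, and the embryos were aged a further 7 h. The driver of the GFP and the change in the salm[340] allele are not given in the sources used here.

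Glycolysis splits a sugar in the cytosol into a pair of pyruvate molecules. Its early steps (hexokinase, phosphoglucose isomerase, phosphofructokinase, aldolase) spend ATP, and its late steps (triose phosphate isomerase, GAPDH, phosphoglycerate kinase, phosphoglycerate mutase, enolase, pyruvate kinase) return it. The GAPDH step needs NAD+, which lactate dehydrogenase and the cytosolic glycerol-3-phosphate dehydrogenase each regenerate, the one by reducing pyruvate and the other by reducing dihydroxyacetone phosphate. In the fly embryo many of these genes are switched on together through the nuclear receptor ERR, and their enzymes are abundant in muscle.

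Libraries held 15170218 and 15668621 counts in salm[340] and 21857295 and 20530119 in WT. Genes of the mitochondrial genome took 60.9% and 63.2% of them in salm[340] and 24.8% and 29.3% in WT, so 5931283 and 5772320 nuclear counts remained in salm[340] against 16444569 and 14519441 in WT. The RNA of salm had 954 and 994 counts in salm[340] and 871 and 749 in WT, or 93.3 and 97.8 CPM (counts per 1000000 scaled counts) in salm[340] against 25.7 and 24.8 CPM in WT. Its log2 fold change was thus 1.92 (SE 0.0926, edgeR adjusted p = 1.102e-06), higher in the mutant line, and with the allele's lesion unknown this level does not check the labels. The 21 listed muscle and myoblast markers summed to 6738 and 6944 CPM in salm[340] and 4635 and 4694 CPM in WT, and none of them was at 0. CPM here are scaled by trimmed mean of M values (TMM), which sets the bulk of genes equal between libraries, so each difference below is relative to other genes and is not an amount of RNA per cell. Fewer cells of a type and less RNA per cell cannot be told apart in such sorted pools.

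Relative to the bulk of genes, though not by library size alone, most of the glycolysis genes were more abundant in salm[340]. Of the 10, 6 were called higher (Pfk, Tpi, Gapdh1, Pgk, Eno and Ldh), 1 was called lower (Gpdh1) and 3 did not pass (Hex-A, Pgi and Gapdh2), at a Benjamini-Hochberg adjusted p under 0.05 in edgeR's quasi-likelihood test. Over all 10738 tested genes 17.2% were called, 10% higher and 7.16% lower. DESeq2 called 6 of the 10 higher and 0 lower, against 13.4% of all genes (8.63% higher, 4.81% lower), and 8 of the 10 had an unadjusted p under 0.05 there and 9 in edgeR. The median log2 fold change, salm[340] minus WT, was 0.48 over the 10 genes and -0.01 over all tested genes, while with library size alone, where mitochondrial counts enter the scale, all 10 were negative and these medians were -0.71 and -1.20. In that setting 9 of the 10 were called lower, all but Gapdh1, among 77.9% of all genes called (0.782% higher, 77.1% lower). The 10 genes together had 985.0 and 963.3 CPM in salm[340] and 709.8 and 688.3 CPM in WT. The mitochondrial share of counts differed between the same libraries, and with mitochondrial and rRNA genes left out before scaling the same 7 genes were called, with a median of 0.49 over the 10. In edgeR without WT replicate 1, and likewise without WT replicate 2, 0 of the 10 genes passed, but so few genes passed in all (14 of 10936, 0.128%, and 14 of 11035, 0.127%) that these counts say little about the 10. There 6 of the 10 had an unadjusted p under 0.05 each time, 9 stayed positive, and their medians were 0.50 and 0.47.

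**Figure D1:**
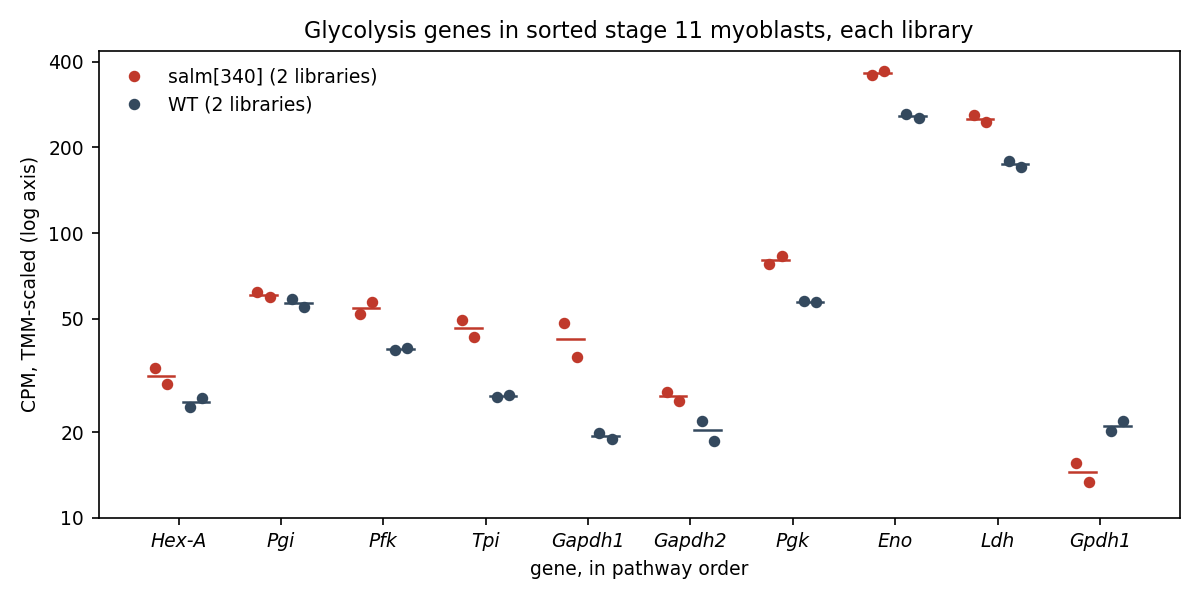
TMM-scaled CPM of the 10 genes on a log axis, salm[340] (red) left of WT (dark), with a point for each library and a line at the mean of 2. Both salm[340] libraries lie above both WT libraries for 9 genes and below them for Gpdh1; with library size alone all 10 genes are lower in salm[340].

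Of the genes that take glucose to fructose bisphosphate, Hex-A and Pgi did not pass and Pfk rose, by about as much as Pgk and Eno. Hex-A (FBgn0001186, X, 9585675 to 9589813, plus strand, build BDGP6 as for all positions here), a hexokinase that phosphorylates glucose, had 33.5 and 29.4 CPM in salm[340] and 24.6 and 26.4 CPM in WT. The lines did not overlap, but the log2 fold change of 0.31 (SE 0.122) did not pass (edgeR adjusted p = 0.122). Pgi (FBgn0003074, 2R, 8910900 to 8914069, minus strand), which turns glucose-6-phosphate into fructose-6-phosphate, had 62.1 and 59.6 CPM in salm[340] and 58.7 and 54.9 CPM in WT. Its difference was the smallest of the 10, at 0.10 (SE 0.0924, edgeR adjusted p = 0.514). Pfk (FBgn0003071, 2R, 10109740 to 10117457, plus strand), the phosphofructokinase gene of the committing step, had 51.8 and 57.4 CPM in salm[340] and 38.8 and 39.4 CPM in WT. It rose by 0.48 on the log2 scale (SE 0.0997, edgeR adjusted p = 0.0093), 1.40-fold. A lack of overlap between the lines was common in these data, at 59.1% of all tested genes (28.4% with salm[340] above WT, 30.7% below), so the 10 of 10 genes without overlap are to be read beside that share.

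The triose phosphate steps held the largest differences. Tpi (FBgn0086355, 3R, 30132981 to 30134599, minus strand), whose enzyme interconverts the triose phosphates, had 49.5 and 43.1 CPM in salm[340] and 26.6 and 27.1 CPM in WT. It rose 1.72-fold (log2 fold change 0.78, SE 0.112, edgeR adjusted p = 0.00127). Gapdh1 (FBgn0001091, 2R, 7791901 to 7793380, minus strand), one of a pair of genes for glyceraldehyde-3-phosphate dehydrogenase, had 48.5 and 36.6 CPM in salm[340] and 19.8 and 18.9 CPM in WT. Its rise, 2.20-fold, was the largest of the 10 (log2 fold change 1.14, SE 0.144, edgeR adjusted p = 0.000614), and the salm[340] libraries lay further apart than the WT libraries (42.6 ± 8.40 against 19.4 ± 0.670 CPM, SD, n = 2 each). Gapdh2 (FBgn0001092, X, 15868145 to 15869661, plus strand), the other gene of the pair, had 27.8 and 25.7 CPM in salm[340] and 21.9 and 18.6 CPM in WT. Its log2 fold change of 0.40 (SE 0.137) did not pass (edgeR adjusted p = 0.0777).

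The balance within the Gapdh pair, which does not depend on the scaling between libraries, was also different. Gapdh1 made up 63.6% and 58.8% of the counts of both genes in salm[340] (95% exact binomial intervals 60.1% to 67.0% and 54.8% to 62.6%) and 47.5% and 50.4% in WT (44.9% to 50.1% and 47.4% to 53.3%). The intervals cover counting error only, and those of the lines did not overlap. Per exon length the shares were 63.0% and 58.2% in salm[340] and 46.9% and 49.7% in WT. The share is given as a description, with no test. The genes are close paralogs and fragments matching both were counted for both, so each gene's own level is uncertain.

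Among the late steps, Pgk and Eno moved by similar amounts. Pgk (FBgn0250906, 2L, 2746880 to 2753068, minus strand), the phosphoglycerate kinase gene of an ATP-forming step, had 78.0 and 83.1 CPM in salm[340] and 57.7 and 57.1 CPM in WT. It rose by 0.49 on the log2 scale (SE 0.0872, edgeR adjusted p = 0.00433). Eno (FBgn0000579, 2L, 1724768 to 1729636, minus strand), the enolase gene, was the most highly counted of the 10, with 357.9 and 370.3 CPM in salm[340] and 262.7 and 253.5 CPM in WT. It rose by 0.50 (SE 0.0716, edgeR adjusted p = 0.00134). Exons of Pgk share 65 bases with the antisense gene Cwc25, and exons of Eno share 362 bases with the antisense gene Rrp40. Taking every count of those neighbours off left Pgk at 0.45 (edgeR adjusted p = 0.0209) and Eno at 0.50 (edgeR adjusted p = 0.00131), in a fit chosen after seeing the data. Cwc25 has 1730 exonic bases and Rrp40 has 1031, most of them not shared. The fit can therefore take off fragments that were never counted for Pgk or Eno.

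At the branch that regenerates NAD+, Ldh and Gpdh1 went opposite ways in the deposited counts. Ldh (FBgn0001258, 3L, 6259105 to 6262694, minus strand), the lactate dehydrogenase gene, had 260.4 and 244.7 CPM in salm[340] and 178.7 and 170.5 CPM in WT. It rose 1.45-fold (log2 fold change 0.53, SE 0.0756, edgeR adjusted p = 0.00124). Gpdh1 (FBgn0001128, 2L, 5943643 to 5948968, plus strand), the cytosolic glycerol-3-phosphate dehydrogenase gene, had 159 and 136 counts in salm[340] and 686 and 662 in WT, which is 15.5 and 13.4 CPM against 20.2 and 21.9 CPM. It fell by 0.54 (log2 fold change -0.54, SE 0.151, edgeR adjusted p = 0.0359). Per exon length there were 27.2 and 29.7 Ldh transcripts for each Gpdh1 transcript in salm[340], against 14.3 and 12.6 in WT, counts shared with an overlapping gene included.

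The call of Gpdh1 was lost without the fragments that it shares with another gene. The antisense gene lncRNA:CR44986 (2L, 5947647 to 5948397, minus strand) has 697 exonic bases, and all 697 lie inside exons of Gpdh1, of which they make up 22.1%. Of the shared bases 31 are coding in Gpdh1, and the rest are untranslated exon towards its 3′ end. Counting ignored strand and gave a fragment to every gene it touched, so reads of the pair cannot be told apart. lncRNA:CR44986 had 43 and 39 counts in salm[340] and 282 and 275 in WT, and its log2 difference was -1.11 (SE 0.248, adjusted p = 0.0134 in edgeR). With those counts taken off, Gpdh1 kept 116 and 97 counts in salm[340] and 404 and 387 in WT, or 11.3 and 9.55 CPM against 11.9 and 12.8 CPM. Ldh then stood at 37.3 and 41.6 transcripts per Gpdh1 transcript in salm[340] and 24.4 and 21.6 in WT. Gpdh1 was still divided by all 3152 of its exonic bases, the shared ones included, so these ratios are too high. They compare the lines with each other and not with the ratios from the deposited counts. The difference of Gpdh1 was then -0.24 (SE 0.186) and did not pass (edgeR adjusted p = 0.419, a fit chosen after seeing the data). This takes off every shared fragment, those of Gpdh1 itself included. DESeq2 on the deposited counts gave -0.54 and did not call Gpdh1 either (adjusted p = 0.0923).

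**Figure D2:**
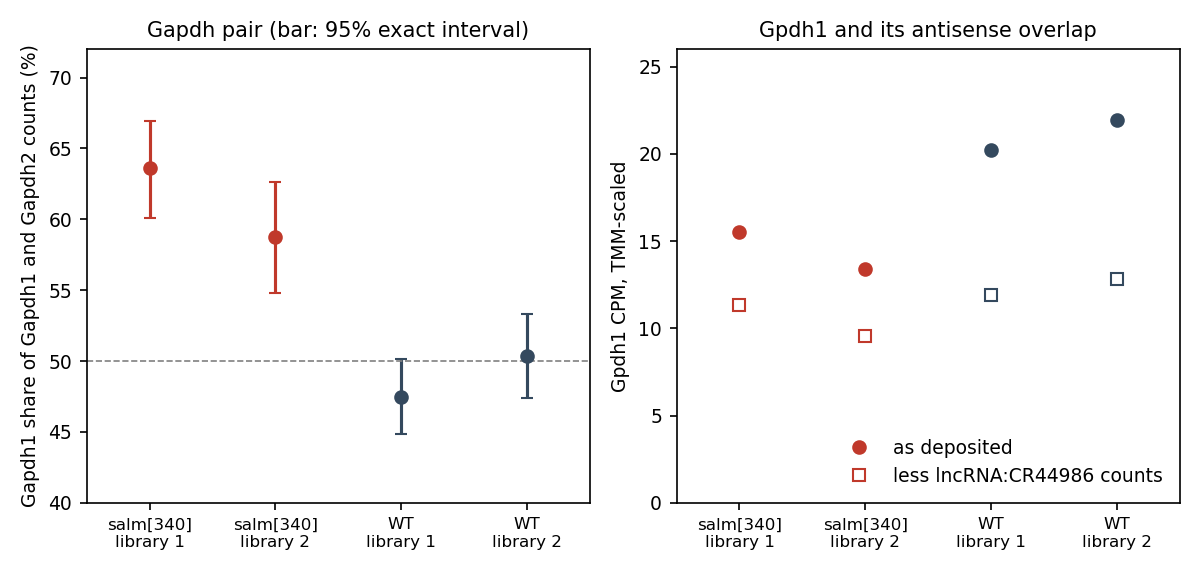
Left, the share of Gapdh1 in the summed counts of Gapdh1 and Gapdh2 in each library with its 95% exact binomial interval, on an axis from 40% to 72%. The salm[340] libraries lie at 63.6% and 58.8% and the WT libraries at 47.5% and 50.4%. Right, Gpdh1 CPM in each library as deposited (filled) and less the counts of lncRNA:CR44986 (open), where the gap between the lines is smaller without them.

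Some markers of other cell types also differed between the lines. The counts called stand beside 17.2% of all tested genes called (10% higher, 7.16% lower). The 7 matched fat body markers summed to 56.1 and 51.2 CPM in salm[340] and 92.8 and 88.7 CPM in WT. Of the 4 that were tested 1 was lower, Mtp, a lipid transfer protein gene (log2 fold change -1.32, edgeR adjusted p = 2.915e-05), and Fbp2 was at 0 in every library. The lower sum is that of Mtp, which had 25.3 and 26.8 CPM in salm[340] and 66.3 and 64.1 CPM in WT. The other 6 fat body markers summed to 30.8 and 24.4 CPM in salm[340] and 26.5 and 24.6 CPM in WT, with overlapping libraries. The 14 hemocyte markers summed to 220.7 and 252.4 CPM in salm[340] and 302.0 and 304.9 CPM in WT, with He at 0 in every library. Of 11 tested 4 were lower (Pxn, drpr, Ppn and Col4a1) and 2 higher (PPO1 and PPO2). Others did not pass, among them vkg and crq with log2 fold changes of 0.005 and -0.03, so the lower sum is not that of every marker. Of the other lists, 2 of 11 neural markers were higher and 2 lower, and 2 of 7 epidermal markers higher and 2 lower. Of 6 tracheal markers 1 was higher and 1 lower, while 1 of 6 gut and 1 of 4 germ cell markers were higher. Single calls in lists this small do not set a list apart from the share of all genes. Of the 21 muscle and myoblast markers 13 were higher and 2 lower (blow and sing), with a median log2 fold change of 0.40. The other 6 did not pass, among them twi, Mef2 and nau, so the higher sum is not that of every marker. The part of these cell types in the glycolysis differences was not tested.

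With Ald1 (aldolase), Pglym78 (phosphoglycerate mutase) and PyK (pyruvate kinase), chosen from several paralogs to complete the chain from glucose to pyruvate and lactate, 12 of 12 genes had positive log2 fold changes. Over all tested genes 5262 of 10738 (49%) were positive. The 12 ranged from 0.10 to 1.14 with a median of 0.44, and 7 were called higher, beside 10% of all genes, while all of the 9 among the 10 chosen genes were negative with library size alone. Ald1 was at 0.20 (SE 0.0742, edgeR adjusted p = 0.101) and PyK at 0.35 (SE 0.157, edgeR adjusted p = 0.160), and neither passed. Pglym78 rose by 0.31 (SE 0.0935) close to the threshold (edgeR adjusted p = 0.0491), and DESeq2 did not call it (adjusted p = 0.135). The 4 genes of the early steps had a median of 0.25, with 1 called. The 7 genes from Tpi to PyK had a median of 0.49, with 5 called. No test of the difference between early and late steps was made. The direction was not shared by every gene of the pathway: of the 10 tested glycolysis genes outside the chosen 10, among them those 3, 6 were positive and 4 negative. Of the negative ones Pfrx was called lower, while Hex-t1, CG11249 and CG12229 did not pass, at 1.32, 6.36 and 2.44 CPM in WT. The positive Hex-C, Hex-t2 and CG9961, at 0.59, 2.60 and 2.45 CPM in WT, did not pass either.

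**Figure D3:**
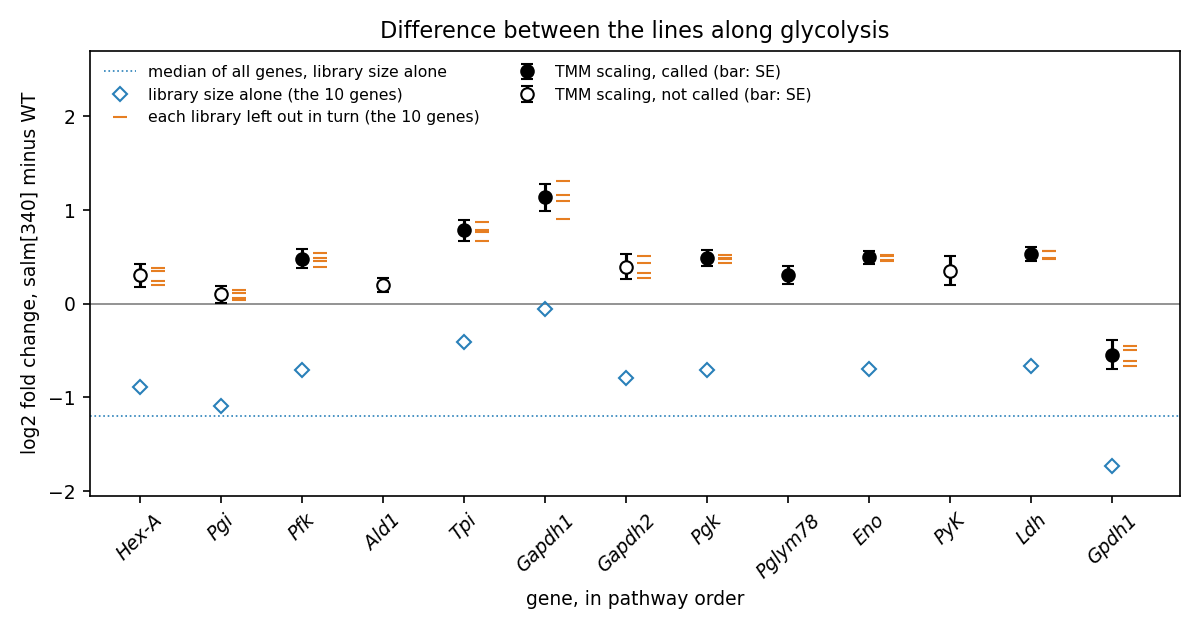
Log2 fold change, salm[340] minus WT, of 13 genes in pathway order, with TMM scaling (circles, filled where called, bars of 1 SE), with each library left out in turn (dashes) and with library size alone (diamonds; dotted line, the median of all genes there, -1.20). The 9 genes that are positive with TMM are negative with library size alone but above that median, and Gpdh1 is below it.

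Levels can be compared between genes only per exon length, as TPM (transcripts per 1000000 over nuclear genes). Exon length here is every exonic base of a gene (3718 for Eno, 1942 for Ldh), which can exceed that of the transcripts present. Eno had more counts than Ldh, so the order of this pair, like other ranks between genes, rests on those lengths. Ldh was the highest of the 10 in both lines, with 295.1 ± 0.00463 TPM in salm[340] and 260.3 ± 5.50 TPM in WT (SD, n = 2 each), and Eno followed with 222.5 ± 15.1 TPM in salm[340] and 201.0 ± 2.63 TPM in WT. Ldh lay above 97.7% of tested nuclear genes in salm[340] and 97.1% in WT, and Eno above 97.1% in salm[340] and 96.2% in WT. Gpdh1, counts shared with lncRNA:CR44986 included, lay above 49% in salm[340] and 59.6% in WT. Pgk came next in both lines, at 86.7 ± 7.64 TPM in salm[340] and 78.7 ± 0.397 TPM in WT. In salm[340] the order went on with Tpi (67.3), Gapdh1 (65.0), Pgi (56.2), Gapdh2 (42.0), Pfk (28.4), Hex-A (17.2) and Gpdh1 (10.4 TPM). In WT it went on with Pgi (66.8), Tpi (49.9), Gapdh2 (40.7), Gapdh1 (37.9), Pfk (25.9), Gpdh1 (19.4) and Hex-A (17.8 TPM). Libraries of neighbours overlapped for Tpi and Gapdh1 in salm[340], and for Gapdh2 and Gapdh1 and for Gpdh1 and Hex-A in WT. TPM of the lines do not share a scale, since the median tested gene differed by -0.36 on the log2 scale (salm[340] minus WT), so these levels rank genes within a line. Without the shared counts Gpdh1 had 7.92 and 7.09 TPM in salm[340] and 10.8 and 11.9 TPM in WT. These values lay below both Hex-A libraries of the same line (17.8 and 16.7 TPM in salm[340], 17.1 and 18.6 TPM in WT). The length of Gpdh1 was kept at all 3152 exonic bases, the shared ones included. Its levels without the shared counts are therefore too low, and the gap to Hex-A is overstated.

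The make-up of the set does not depend on scaling between libraries either, though it does depend on the exon lengths used. Ldh and Eno together took most of the summed level, Ldh 33.1% ± 0.423 in salm[340] and 32.6% ± 0.247 in WT, and Eno 25.0% ± 1.38 in salm[340] and 25.2% ± 0.0124 in WT (SD, n = 2 each). Gapdh1 held 8.17% and 6.44% in salm[340] and 4.77% and 4.72% in WT, and Tpi 7.92% and 7.21% in salm[340] and 6.09% and 6.43% in WT. Pgi held 6.29% and 6.315% in salm[340] and 8.50% and 8.24% in WT. Gpdh1, overlap included, held 1.23% and 1.11% in salm[340] and 2.29% and 2.57% in WT. The libraries of the lines overlapped for Pfk, Gapdh2, Pgk and Eno. Gapdh1 and Tpi held more of the sum in salm[340], and Pgi, Hex-A and Gpdh1 held less, with Ldh apart by less than 1 percentage point. Lack of overlap was common in these data, at 59.1% of all tested genes by CPM. It therefore does not by itself place a shift at particular steps.

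**Figure D4:**
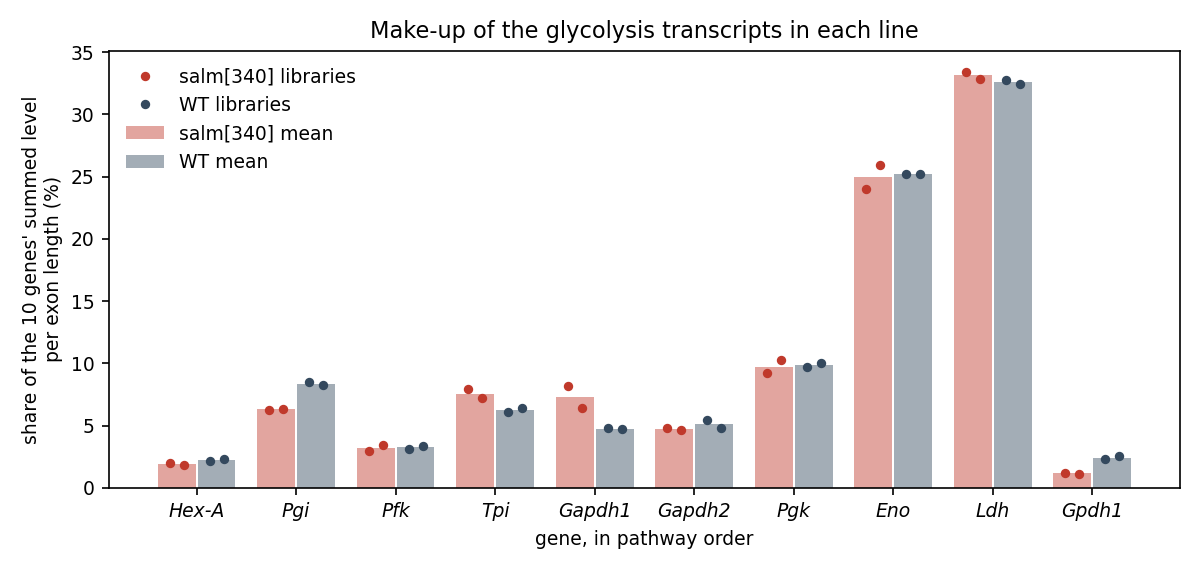
Share of each gene in the summed level per exon length of the 10 genes, in percent, as means (bars, from 0) and single libraries (points), salm[340] left of WT. Gapdh1 and Tpi take more of the sum in salm[340], and Pgi and Gpdh1 (shared counts included) take less. These shares do not depend on the scaling between libraries.

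Genes around the pathway were called in both directions, and the counts of each list stand beside 17.2% of all tested genes called (10% higher, 7.16% lower). The other glycolysis genes and the pentose phosphate genes were near that share, and the lists as such were not tested. Of the 15 other glycolysis genes 10 were tested, with 1 higher (Pglym78) and 1 lower (Pfrx) and a median log2 fold change of 0.21. Pfrx makes and breaks fructose-2,6-bisphosphate, an activator of phosphofructokinase, and had 13.9 CPM in salm[340] and 24.9 CPM in WT (log2 fold change -0.84, SE 0.139, edgeR adjusted p = 0.00284). Of the glycerol phosphate shuttle and gluconeogenesis genes, 8 of 9 were tested, with 3 higher and 0 lower and a median of 0.40; for the 0, 4 of the 8 had an unadjusted p under 0.05 in edgeR, and DESeq2 called 2 higher and 0 lower. Gpo1, a mitochondrial glycerol-3-phosphate dehydrogenase gene and so the partner of Gpdh1 in the shuttle, rose by 1.12 (SE 0.269, 10.6 CPM in salm[340] and 4.84 CPM in WT, edgeR adjusted p = 0.0191). Pepck1 (phosphoenolpyruvate carboxykinase) rose by 0.52 and fbp (fructose-1,6-bisphosphatase) by 0.35, both of them enzymes of glucose synthesis.

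Among 12 tested genes of glycogen and trehalose supply 2 were higher and 1 lower (median 0.13). Both higher ones break down glycogen: GlyP, glycogen phosphorylase (136.5 CPM in salm[340] and 85.9 CPM in WT, log2 fold change 0.67, SE 0.0907, edgeR adjusted p = 0.000955), and CG9485, the debranching enzyme gene (0.87, SE 0.158, edgeR adjusted p = 0.00478). The sugar transporter gene sut1 was the lower one (-1.22, SE 0.245). The 7 pentose phosphate genes had 0 higher and 1 lower, the transketolase gene CG8036 (-0.39, SE 0.0771, edgeR adjusted p = 0.00775), and a median of 0.03; 1 had an unadjusted p under 0.05 in edgeR, and DESeq2 called 1.

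Of 25 genes of pyruvate entry and the TCA cycle 4 were higher and 3 lower (median 0.19). The succinate dehydrogenase subunit genes SdhB (0.54) and SdhD (0.61) and the fumarase gene Fum1 (0.48) rose. Mpc1, a subunit of the carrier that brings pyruvate into mitochondria, fell by 0.74 (log2 fold change -0.74, SE 0.163, 11.7 CPM in salm[340] and 19.5 CPM in WT, edgeR adjusted p = 0.0124). The aconitase gene mAcon1 (-0.36) and the malic enzyme gene Men-b (-1.21) were also lower.

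Among 12 listed transcriptional and oxygen-sensing regulators 5 were higher and 0 lower (median 0.14, 6 with an unadjusted p under 0.05 in edgeR, and 5 higher and 0 lower in DESeq2). ERR, the nuclear receptor gene, had 18.3 CPM in salm[340] and 18.1 CPM in WT and did not pass (log2 fold change 0.02, SE 0.140, edgeR adjusted p = 0.939). The growth regulator gene Myc had 219.5 CPM in salm[340] and 72.3 CPM in WT (log2 fold change 1.60, SE 0.0842, edgeR adjusted p = 2.092e-06). The hypoxia factor gene sima rose by 0.39 (SE 0.0869), and Hph, the prolyl hydroxylase gene that marks Sima for breakdown, by 1.08 (SE 0.0929). The transcription factor genes crp (0.88) and Hr4 (0.66) rose as well. With library size alone 1 of these regulators was called higher and 10 lower.

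**Figure D5:**
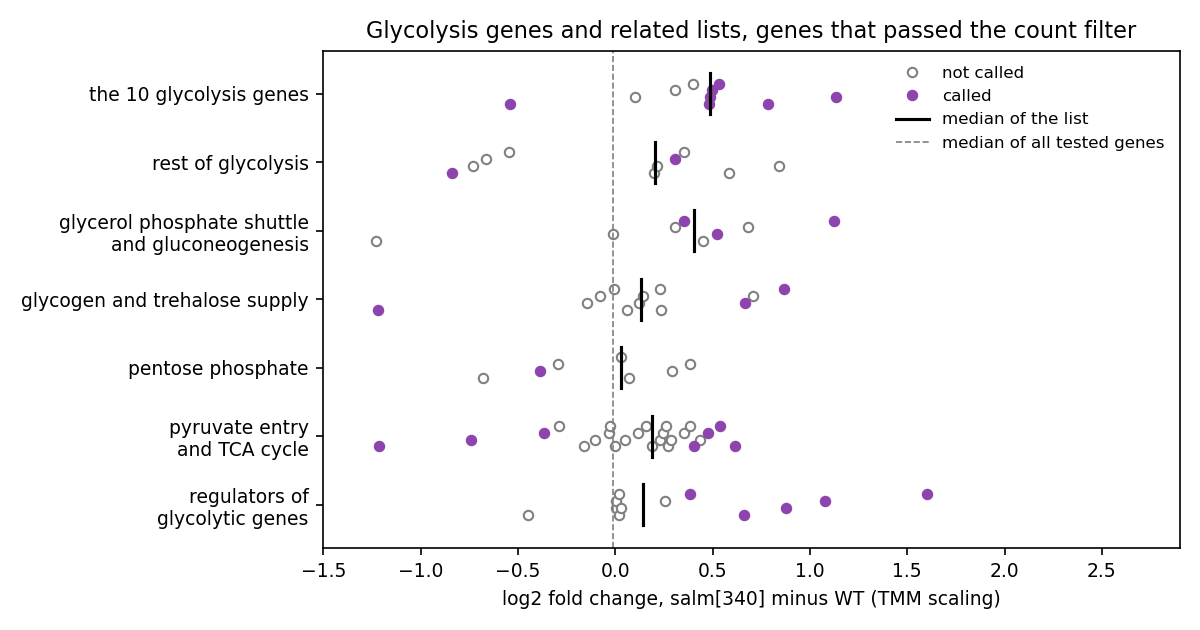
Log2 fold change, salm[340] minus WT with TMM scaling, of the tested genes of each list (filled where called), with the list's median (bar) and the median of all tested genes (dashed). The 10 glycolysis genes have a median of 0.48 and the 6 related lists medians between 0.03 and 0.40; with library size alone the median of all genes is -1.20 and the 10 glycolysis genes are all negative.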

How the data were processed

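The submitters' processing notes name cutadapt 2.4, STAR 2.5.4b and genome build BDGP6. Per the file headers, the authors assigned fragments to genes of Ensembl BDGP6.32 (release 104) with featureCounts 2.0.1, without strand, and gave multi-mapping fragments and fragments over several genes to each of them. The deposited values are raw counts and were equal in the table of the whole series and in each library's own file for all 17518 genes. Groups came from the titles. salm[340] was compared with WT on all 4 libraries in edgeR 4.0.16 (R 4.3.3; TMM, filterByExpr, glmQLFTest, no block), with adjustment over all 10738 tested genes. The SE is the absolute log2 fold change over the square root of F. TPM used the deposited exon lengths. The test was tried on simulated counts. The genes, related lists and naming rule (all 10 genes, and per related list up to 6 called genes with the smallest adjusted p, plus ERR and sima) were chosen with earlier results of these data known. Exon positions and shared exonic bases came from the annotation in the authors' count files (release 104). Coding positions were read from Ensembl release 115 on the same assembly, where all 10 genes had the same ends. Alternatives were other scalings, no filter, DESeq2 1.42.0, robust estimation, a replicate block and each library left out. No genome or promoter sequence was used here, so motifs were not analysed here.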

Additional observations from a re-analysis of the deposited data

How the results depend on the processing

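Scaling set the direction of 9 of the 10 genes. By library size alone, log2 fold changes were -0.88 for Hex-A, -1.09 for Pgi, -0.71 for Pfk, -0.41 for Tpi, -0.0547 for Gapdh1, -0.80 for Gapdh2, -0.70 for Pgk, -0.70 for Eno and -0.66 for Ldh, all above the median of all genes there (-1.20); Gpdh1 was at -1.73, and the cause was not tested. In that setting 8361 genes were called (84 higher, 8277 lower) against 1847, and 64 genes of the related lists against 21. Leaving out one library at a time gave 0 to 9 of the 10 genes called, 14 to 3803 of all genes and 0 to 39 of the related lists, in each case with the lowest count without WT replicate 1 or without WT replicate 2, where the lone WT library was assumed to vary like the salm[340] pair; all 10 genes kept their direction. Without salm340 replicate 1 and without salm340 replicate 2, 3803 and 3602 genes were called. The replicate numbers did not pair the libraries (correlation of the deviations 0.042), and with the replicate block 8 of the 10 genes were called, Gapdh2 among them (edgeR adjusted p = 0.049). DESeq2 called 6 of the 10 and 1443 of all genes. Summed TPM of the 10 genes were 890.8 in salm[340] and 798.3 in WT over nuclear genes, and 330.2 and 565.7 over all listed genes, mitochondrial ones included. The lower nuclear depth of salm[340] limits precision most for Gpdh1, with under 160 counts per library.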

Other observations

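By position, 3 of the 10 genes lie on 2L, the arm of salm, 3 on 2R, 2 on X and 1 each on 3L and 3R. Neither X-linked gene, Hex-A or Gapdh2, passed, on a chromosome where 14.8% of 1775 tested genes were called. The genes of 2L (Pgk, Eno and Gpdh1) all passed, where 19.8% of 2006 were called. The call of Gpdh1 was lost without its shared fragments and in DESeq2. So few genes per arm cannot show a tie to position, and none was tested. The antisense neighbours of Pgk and Eno did not pass themselves: Cwc25 had 21.8 and 14.4 CPM in salm[340] and 11.4 and 12.3 CPM in WT (log2 fold change 0.61, edgeR adjusted p = 0.0684), and Rrp40 had 10.9 and 8.27 CPM in salm[340] and 8.37 and 7.26 CPM in WT (0.29, edgeR adjusted p = 0.433). Bacc, which overlaps the Pgk gene on the other strand but shares no exonic base with it, was at -0.08 (edgeR adjusted p = 0.530).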
